A study of Mus musculus with 24 samples.

Results

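The regions described here are the peaks that the authors' table places in the 3' UTR of a gene with 2 or more such peaks. They were taken by that rule from the table's own location and gene columns, and the peaks of a gene were put in order from proximal (nearest the stop codon side) to distal by strand and position. The rule finds 2520 peaks in 1085 genes, of 14297 peaks with a gene and 18975 lines in all. Another 4180 peaks called 3' UTR are the only one of their gene. The libraries hold RNA that came down with an antibody against STAU2 (RNA immunoprecipitation) from whole brain cortex of C57BL/6 mouse embryos taken at 4 stages (E11.5, then E13.5, next E15.5, last E17.5), with 3 libraries each and no genetic change or treatment. Input libraries were not analysed here, so a change with stage mixes the amount of an RNA or of one of its isoforms with its binding. In whole tissue, fewer cells of a type and less RNA per cell cannot be told apart.

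STAU2 is a double-stranded RNA-binding protein that carries RNAs in neurons and is passed unequally between daughter cells of cortical progenitors. The 3' UTR, the stretch after the stop codon, holds many of the sites at which such proteins bind. Most mammalian genes have more than 1 place where the RNA can be cleaved and polyadenylated. Sites in the same last exon give a shorter and a longer form of 1 UTR, while sites in different last exons give unlike UTRs and often unlike protein ends, and the brain is known for its long 3' UTRs. Cleavage is directed by a hexamer close upstream of the site, most often AATAAA or its variant ATTAAA.

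The ends below belong to genes whose 2 outermost peaks changed in unequal measure with stage, and in which each peak has an annotated RNA end of its own. They are examples: both peaks of Ncapd2, another gene with such a change, share an end. For each peak, the nearest end downstream was taken among GENCODE vM21 protein-coding transcripts (GRCm38) with an exon under the peak. Each window of 30 bases is the last stretch of the transcript (in Mical3 distal, ending a few bases before it so as to hold the hexamer), 5' to 3' on the strand of the gene, with the hexamer in capitals where one was found.
Septin8 proximal end (chr11:53544066-53544095, plus strand): tgttttcATTAAAttttgcatttattttga
Septin8 distal end (chr11:53549536-53549565, plus strand): acacgtggaattgactgtaaaaaaAATAAA
Lrrfip1 proximal end (chr1:91117286-91117315, plus strand): tcattgaAATAAAagcattttctaatttta
Lrrfip1 distal end (chr1:91128889-91128918, plus strand): cttttaaagaatgtactgctagaaaaaaac
Mical3 proximal end (chr6:120997316-120997345, minus strand): cttatttaagagAATAAAttccaaacaatc
Mical3 distal end (chr6:120931728-120931757, minus strand): gcgcAATAAAgttttgttttgtttcggttt
Gnas proximal end (chr2:174338055-174338084, plus strand): ataAATAAAactctctgcatgtttcagcaa
Gnas distal end (chr2:174346683-174346712, plus strand): aatgaAATAAAtattgtgttgtgcagcatt
Rufy3 proximal end (chr5:88642666-88642695, plus strand): agtactagAATAAAaacaaaacaaaaaaat
Rufy3 distal end (chr5:88651363-88651392, plus strand): agttaggggaAATAAAattagtactactaa
Kansl2 proximal end (chr15:98518821-98518850, minus strand): tatatagtttctATTAAAtgttaaaatgct
Kansl2 distal end (chr15:98517658-98517687, minus strand): acaagccAATAAAccctacagttcactgaa

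In these 6 genes both ends carried a hexamer, except the distal end of Lrrfip1, where neither was found. In the distal end of Septin8 the hexamer forms the last bases of the transcript, so it does not lie upstream of the annotated end. On the strand of the transcript, AATAAA was present in the last 40 bases of 46.7% of 41654 protein-coding transcript ends, and ATTAAA without AATAAA in 11.2%. AATAAA was looked for first, so an end with both counts once. An annotated end lies between the peaks of 164 pairs whose peaks are both in 3' UTR exons by GENCODE, the same one or separate ones. There, the end taken for the proximal peak held AATAAA in 34.1%, ATTAAA in 13.4% and neither in 52.4%. For the distal peak an end downstream was annotated in 147 of them, with 59.9%, 18.4% and 21.8%. A match is a stretch of letters, not a measured cleavage site.

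Gene-peak totals were 4688215 to 6374892 counts per library. The median peak described here reached 33 to 42 counts in the E11.5 libraries and 74 to 119 in the later ones, so E11.5 is the least precise stage. The labels do not say whether the replicates are separate litters, and p-values measure the spread between these libraries. The E11.5 libraries stood apart: peaks called Intron held 56.3% to 64.0% of their gene-peak counts, against 22.6% to 34.0% at the later stages, and 43.7% to 52.8% against 16.4% to 23.8% without the highest peak, in Cmss1. Of 11 cortical markers 9 have a peak in the table (not Neurod2 and Bcl11b), with summed levels of 821 to 1260 CPM at E11.5 and 1570 to 2450 later. The 5 markers of meninges had a sum of 196 to 244 CPM in E11.5 libraries, 297 to 316 in those of E13.5, 30.3 to 39.6 in those of E15.5 and 2.51 to 3.26 in those of E17.5. Of other cell types, choroid plexus (Ttr) reached 443 to 573 CPM at E13.5, the erythroid gene Alas2 8.27 to 16.3 at E11.5, and 3 of 5 interneuron markers 34.2 to 233 over the stages. For endothelium 1 of 4 markers and for microglia 1 of 3 were in the table, at 3.98 to 16.3 and 1.77 to 5.23 CPM. Their part in the results below was not tested.

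Most of these genes had a pair of peaks: 838 genes had 2, 178 had 3, 46 had 4, 14 had 5, 7 had 6 and 2 had 7. Peaks were 145 to 966 bases wide, with a median of 335. The table's name does not always match GENCODE: 1584 peaks (62.9%) lie mostly in a 3' UTR of a protein-coding transcript, 888 (35.2%) in coding sequence, 43 (1.7%) in another exon and 5 (0.2%) in a 5' UTR. By that annotation, the most proximal and the most distal peak of a gene fall into 4 layouts. In 436 genes both lie in 1 3' UTR exon, with a median gap of 580.5 bases. In 60 genes they lie in separate 3' UTR exons, with a median gap of 10581 bases and an annotated transcript end between them in 56. In 455 genes the proximal peak is in coding sequence and the distal one in the 3' UTR, and 134 genes have another layout. For 17 genes and 17 peaks the counts were too low to test.

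Peaks of 1 gene differed in level. Per kilobase of peak, the highest of a gene stood a median 1.89-fold above the lowest in E11.5 libraries and 1.94-fold in those of E17.5. Per kilobase again, the distal peak was the higher one in 52.2% of the 1068 tested pairs at the first stage, 50.9% at the next, 52.8% at the third and 56.6% at the last. Within 1 3' UTR exon that share was 44.1% at E11.5 and 46.9% at E17.5. With the proximal peak in coding sequence it was 62.4% and 67.5%. In the 247 genes with 3 or more peaks, the highest per kilobase was the most distal in 84 and the most proximal in 66 at E11.5, and in 99 and 53 at E17.5.

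Taken 1 by 1, the peaks changed with stage about as often as the rest of the table. Between E11.5 and E17.5, 1287 of 2503 changed (51.4%, 657 higher and 630 lower; edgeR, adjusted p under 0.05), where 51.9% of all gene peaks did (25.8% higher and 26.1% lower). Over the 4 stages 1142 changed (45.6%, against 46.6%). From E11.5 to E13.5 the share called was 16.4%, with 230 higher and 180 lower, against 17.2% of all gene peaks (9.36% and 7.88%). From E13.5 to E15.5 it was 0.24%, with 0 higher and 6 lower, against 0.319% (0.0425% and 0.276%). From E15.5 to E17.5 it was 11.6%, with 125 higher and 166 lower, against 13.1% (5.89% and 7.17%). The direction depends on scaling: scaled to each library's total instead of TMM, 1423 would be higher and 199 lower at E17.5. The ratio of peaks within a library does not depend on it. Directions of single peaks given below, by pair, gene or gene list, use TMM and do depend on it.

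Where both peaks of a gene were called, 434 of 445 pairs had 1 direction. Between E11.5 and E17.5 both were higher in 215 of 1068 pairs and both lower in 219, while 105 had a call at the proximal peak alone and 117 at the distal one alone. Opposite calls were made in 11 genes: Ankrd52, Bcl7a, Fam193a, Gm21988, Gnas, Kmt5b, Lrrfip1, Mical3, Ptbp1, Rufy3 and Septin8. Of these, 9 have their peaks in separate 3' UTR exons. Across genes, which share libraries and are not replicates, the log2 changes of proximal and distal peaks correlated with r = 0.906 within 1 3' UTR exon (429 pairs), 0.913 from coding sequence to 3' UTR (449 pairs) and 0.384 between separate 3' UTR exons (60 pairs). Pairs of other location classes had r = 0.875 (Exon, 1142 pairs), 0.901 (5' UTR, 71 pairs) and 0.784 (Intron, 43 pairs). A high r is thus not particular to 3' UTR pairs. How often both peaks were called in 1 direction was not counted in those classes. The scatter of both changes shows the 3 layouts of 3' UTR pairs and the remaining one.

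**Figure D1:**
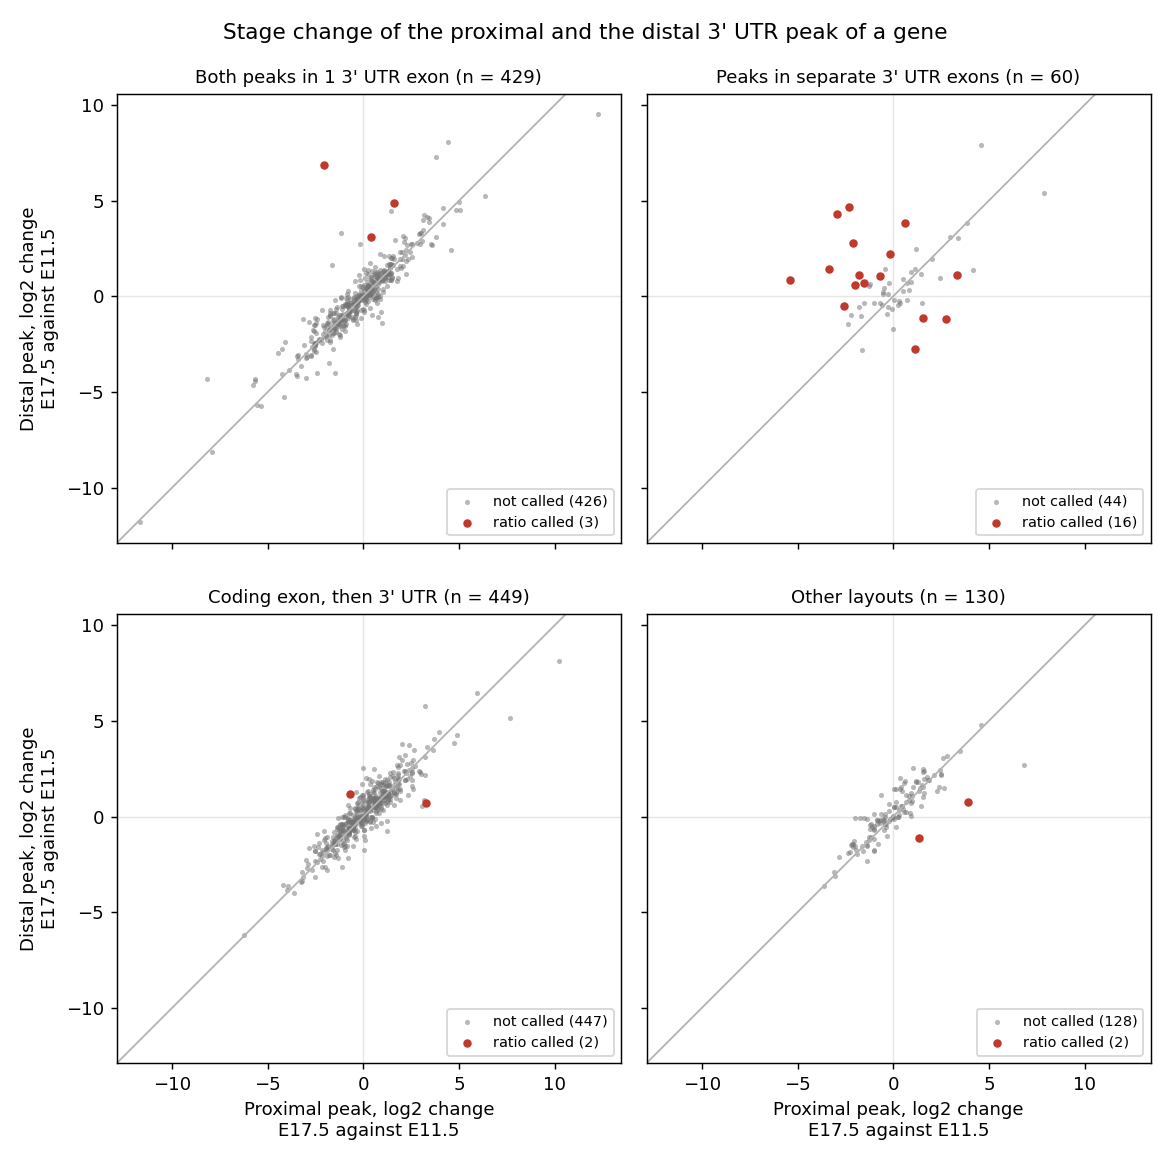
Log2 change from E11.5 to E17.5 of the most proximal peak (horizontal axis) and the most distal peak (vertical axis) of each gene, in 4 panels by layout, with equal change on the diagonal line and pairs whose ratio passed the test in red. In the panel of separate 3' UTR exons 16 of 60 pairs are red and many lie off the diagonal, while the other panels hold 3 of 429, 2 of 449 and 2 of 130.

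The distal to proximal ratio was then tested within libraries, in 2324 pairs of all location classes together (edgeR, quasi-likelihood test, Benjamini-Hochberg over the 2324). Between E11.5 and E17.5 the ratio changed in 23 of 1068 3' UTR pairs, 16 higher and 7 lower, where 1.85% of all pairs tested were called (1.2% higher and 0.645% lower). An unadjusted p under 0.05 was found in 97. By layout, 16 of 60 pairs in separate 3' UTR exons were called (26.7%), 3 of 429 within 1 3' UTR exon (0.70%), 2 of 449 from coding sequence to 3' UTR (0.45%), 2 of 130 of other layout and 18 of 1142 pairs of peaks called Exon (1.58%). Of the pairs in separate exons, 50% differed by more than 2-fold between the stages, against 12.6% within 1 exon. Among 43 pairs of peaks called Intron, 39.5% did so and 2 were called (4.65%). These shares beyond 2-fold count estimates whatever their error. Over all 3' UTR pairs the median change of the ratio was 0.11 on the log2 scale, and it was 0.24 for Exon pairs. The test found few small changes on counts simulated from its own fitted model. For E17.5 against E11.5 it recovered 4% of 2-fold (2 pairs), 48% of 4-fold (24 pairs) and 78% of 6-fold changes (39 pairs). Of 78 calls 4 were false. Such counts follow the model of the test, so they cannot show how it errs where the data depart from that model. With both peaks at a mean of 50 counts or more, 616 pairs could be tested and 7 were called, 2 higher and 5 lower, so the balance of directions turned over. The 3 of them in separate exons (Gnas, Klc1 and Rufy3) were lower, and of the 12 higher pairs of separate exons Zwint alone could still be tested.

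**Figure D2:**
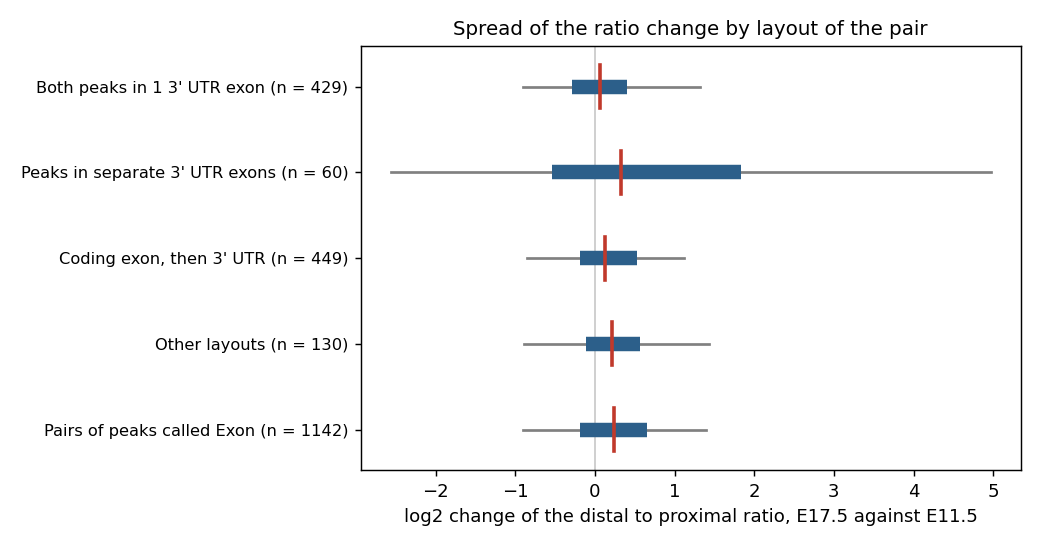
Change of the distal to proximal ratio from E11.5 to E17.5 (log2) by layout, with the median as a red bar, the quartiles of the pairs as a thick bar and percentiles 5 to 95 as a thin line. The medians lie between 0.06 and 0.33, and of the sets drawn the pairs in separate 3' UTR exons spread most. Pairs of peaks called Intron are not drawn.

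In all 16 called pairs of separate exons, the proximal peak lies inside an intron of an annotated transcript whose exons hold the distal peak. That holds for 42 of the 60 pairs of this layout, where 23 had an unadjusted p under 0.05. Among the other 18, edgeR called 0 and 2 had an unadjusted p under 0.05. The share of intron counts given above was also highest at E11.5, when the proximal peak was relatively higher in 12 of the 16. Peaks called Intron themselves had a median log2 change of -0.12 from E11.5 to E17.5. Of 467 such peaks 82 were higher and 148 lower, where 25.8% and 26.1% of all gene peaks were. These directions use TMM and depend on scaling. The part of intron reads in these ratios was not tested.

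Septin8, a GTP-binding protein of the septin cytoskeleton, had the smallest adjusted p. The distal share, that is the distal peak's percentage of proximal plus distal counts, was 7.5%, 2.63% and 2.13% in the 3 E11.5 libraries, next 10.2%, 13.3% and 10.9% in the E13.5 libraries, then 40.6%, 17.8% and 37.7% in those of E15.5, and last 78.0%, 85.0% and 87.8% in those of E17.5. The distal peak thus went from the minor to the major one, and the libraries of E11.5 and E17.5 do not overlap, which the rule for named genes asks for. Its proximal peak (chromosome 11, 53543805 to 53543949) fell from 14.1 ± 3.19 to 2.83 ± 0.56 CPM (SD, n = 3), and the distal one (53548820 to 53549224) rose from 0.55 ± 0.29 to 15 ± 3.92. The ratio rose by 6.93 ± 0.68 (log2 ± SE; edgeR adjusted p = 5.66e-06). At E11.5 the distal peak had 5 counts in all (3, 1 and 1), so the size of the rise is imprecise.

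Lrrfip1, a nucleic acid-binding protein, showed the same order of stages. The libraries had a distal share of 14.3%, 11.1% and 20% at E11.5, next 63.6%, 40% and 69.4% in the E13.5 libraries, then 87.8%, 68.6% and 72.7% in those of E15.5, and last 94.1%, 94.4% and 99.3% in those of E17.5. Each later stage lay above E11.5 in all 3 libraries. The ratio rose by 7.20 ± 0.82 (edgeR adjusted p = 1.87e-05), with the proximal peak (chromosome 1, 91116709 to 91116853) at 18, 16 and 12 counts at E11.5 against 6, 5 and 1 at E17.5, and the distal one (91128545 to 91129024) at 3, 2 and 3 against 96, 85 and 148.

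Mical3, an oxidase that acts on actin and vesicle traffic, changed early. The distal share was 10%, 20% and 17.1% at E11.5, next 80.0%, 76.0% and 68.4% in the E13.5 libraries, then 67.8%, 91.8% and 83.1% in those of E15.5, and last 82.3%, 77.6% and 91.8% in those of E17.5. The 3 later stages overlap each other and stand clear of E11.5. The ratio rose by 4.90 ± 0.69 from E11.5 to E17.5 (edgeR adjusted p = 0.000206). The proximal peak (chromosome 6, 120999740 to 121000050) fell by 2.10 on the log2 scale and the distal one (120933634 to 120934038) rose by 2.80.

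Fam193a had a distal share of 64.5%, 61.0% and 75.4% at E11.5, next 95%, 97.3% and 95.1% in the E13.5 libraries, then 98.7%, 98.0% and 93.5% in those of E15.5, and last 98.4%, 100% and 100% in those of E17.5. As in Mical3, the step lies between E11.5 and E13.5. The proximal peak (chromosome 5, 34477419 to 34477735) had 22, 30 and 16 counts at E11.5 and 3, 0 and 0 at E17.5. From these counts the ratio was 84.3 times higher at E17.5 (95% exact interval 27.0 to 425, counting error alone; edgeR adjusted p = 6.74e-05).

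**Figure D3:**
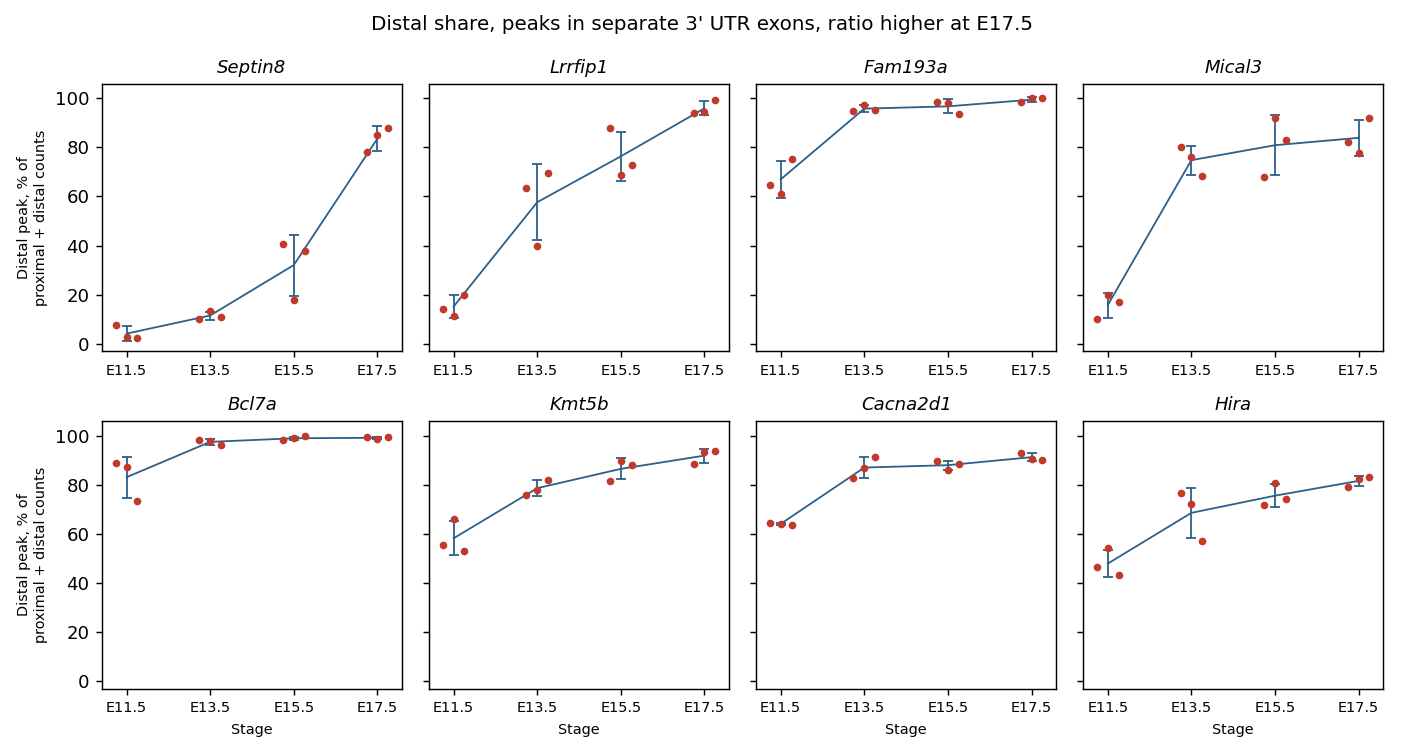
Distal peak as a percentage of proximal plus distal counts (vertical axis) by stage in 8 genes with peaks in separate 3' UTR exons and a higher ratio at E17.5, with red points for the 3 libraries and blue lines and bars for the mean and SD. In every panel the E17.5 libraries lie above those of E11.5, from a mean of 4.09% to 83.6% in Septin8 and from 83.2% to 99.3% in Bcl7a. All but Cacna2d1 and Hira were picked by a rule that asks for no overlap of these libraries.

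In the further called pairs of separate exons given in this paragraph and the next, the ratio was higher at E17.5 as well. Kmt5b, which methylates histone H4, had a distal share of 55.6%, 66.2% and 53.1% at E11.5 and 88.7%, 93.4% and 93.9% at E17.5 (log2 ratio 3.03 ± 0.51; edgeR adjusted p = 0.00148). Bcl7a, a subunit of the BAF remodelling complex with 4 peaks, went from 88.8%, 87.2% and 73.6% to 99.4%, 98.7% and 99.7% (4.81 ± 0.75; adjusted p = 0.000703). Its 3 distal peaks lie within 1 exon, and their log2 changes were 0.86, 0.71 and 1.45, while the proximal peak had -3.35. Hira, a chaperone of histone H3.3, went from 46.5%, 54.2% and 43.2% to 79.3%, 82.5% and 83.3% (2.27 ± 0.47; adjusted p = 0.00969, and 0.0514 without E11.5 replicate 3). Smarcad1, a chromatin remodeller, had 88.3%, 82.9% and 86.8% against 96.6%, 97.1% and 95.4% (2.10 ± 0.53; adjusted p = 0.0453), which failed without any 1 of 8 libraries (up to 0.171), with limma (0.0539) and with a replicate block (0.0584). In these 4 genes the proximal peak fell, and the distal peak passed as higher in Kmt5b and Bcl7a.

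Cacna2d1, an auxiliary subunit of voltage-gated calcium channels, has the widest gap among the 60 pairs, 285199 bases. Its distal share was 64.7%, 64.2% and 63.6% at E11.5, next 82.9%, 87.1% and 91.4% in the E13.5 libraries, then 89.6%, 86.0% and 88.7% in those of E15.5, and last 93.2%, 90.5% and 90.4% in those of E17.5 (log2 ratio 2.57 ± 0.48; edgeR adjusted p = 0.00354). The proximal peak fell from 12.5 ± 1.84 to 3.15 ± 0.41 CPM (SD, n = 3), and the distal one, 22.5 ± 3.80 against 33.8 ± 5.53, did not pass. In Gnao1, the alpha subunit of the neuronal G protein Go, the most distal of 4 peaks rose from 77.5 ± 15.7 to 1090 ± 254 CPM while the most proximal had 3.55 ± 1.52 and 5.45 ± 2.01 (ratio 3.18 ± 0.62; adjusted p = 0.00571, and 0.0623 without E11.5 replicate 3). Agap3, which acts on Arf GTPases, went from 43.3%, 45.2% and 28.6% to 75.3%, 82.6% and 68.2% (2.30 ± 0.52; adjusted p = 0.0181), and 3 left-out libraries each ended that call (up to 0.124). Zwint, a kinetochore protein, went from 78.0%, 86.7% and 81.0% to 94.1%, 93.3% and 95.5% (1.86 ± 0.45; adjusted p = 0.0311), and 5 left-out libraries each ended that call (up to 0.179), as did the mean of 50 counts (0.0507).

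The ratio fell in 4 genes with separate 3' UTR exons. Gnas encodes the stimulatory G protein alpha subunit, and its distal peak (chromosome 2, 174346430 to 174346853) holds nearly all counts: 12082, 14785 and 6531 at E11.5 against 12736, 6552 and 10758 at E17.5. The proximal peak (174337886 to 174338208) had 15, 19 and 8 counts at E11.5, next 34, 23 and 31 in the E13.5 libraries, then 49, 65 and 34 in those of E15.5, and last 214, 167 and 210 in those of E17.5. E17.5 lies far above the other stages in each library. The ratio changed by -4.01 ± 0.42 (log2 ± SE; edgeR adjusted p = 6.8e-06), although the distal share moved only from 99.9% to 98.0%.

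Rufy3, an adaptor of vesicle transport in axons, had a distal share of 59.2%, 84.3% and 72.3% at E11.5, next 52.3%, 46.7% and 64.9% in the E13.5 libraries, then 43.0%, 50.8% and 44.8% in those of E15.5, and last 23.1%, 33.3% and 32.6% in those of E17.5. It thus changed its major peak from distal to proximal, the only called pair of separate exons to do so, while 5 changed the other way (Septin8, Lrrfip1, Mical3, Hira and Agap3). Among the 44 pairs of this layout not called, 7 changed from distal to proximal by mean share and 4 the other way. Over all 60 pairs it was 8 and 9, so the layout as a whole had no prevailing direction. The ratio of Rufy3 changed by -2.66 ± 0.52 (edgeR adjusted p = 0.00571). The proximal peak (chromosome 5, 88642257 to 88642401) rose from 7.50 ± 2.94 to 22.3 ± 7.43 CPM (SD, n = 3) and the distal one (88650858 to 88651002) fell from 20.1 ± 6.88 to 9.13 ± 2.42.

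Klc1, the kinesin light chain, rose at both peaks, by 3.34 ± 0.40 at the proximal and 1.10 ± 0.40 at the distal one (log2 ± SE). Its distal share was 29.6%, 22.5% and 38.5% at E11.5 and 8.75%, 11.2% and 7.19% at E17.5 (ratio -2.15 ± 0.49; edgeR adjusted p = 0.0181, and up to 0.146 for the 4 left-out libraries that each ended the call). Ankrd52, a regulatory subunit of protein phosphatase 6, had 20.8%, 39.7% and 13.1% against 3.73%, 1.78% and 1.90% (ratio -3.70 ± 0.78; adjusted p = 0.0098, and up to 0.101 without E11.5 replicate 2 or E17.5 replicate 2). The groups of libraries do not overlap in either gene, which the rule for named genes asks for.

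Within 1 3' UTR exon the ratio rose in 3 genes and fell in 0, and each of the 3 has an annotated transcript end between its peaks. Such an end lies between the peaks of 105 tested pairs of this layout, where 16 had an unadjusted p under 0.05, and it is missing in 324, where again 16 had one and 0 were called. Ptbp1, a repressor of neuronal splicing, had 0 distal counts in the 3 E11.5 libraries (chromosome 10, 79864756 to 79865054), next 3, 11 and 1 in the E13.5 libraries, then 11, 23 and 13 in those of E15.5, and last 6, 22 and 13 in those of E17.5. Its proximal peak (79863625 to 79863769) had 122, 87 and 153 counts at E11.5, next 175, 126 and 206 in the E13.5 libraries, then 230, 154 and 169 in those of E15.5, and last 63, 53 and 67 in those of E17.5. The ratio was at least 27.0-fold higher at E17.5, set against a floor of 3 counts over the 3 E11.5 libraries (edgeR adjusted p = 0.00345). The proximal peak fell by 2.04 ± 0.36 on the log2 scale.

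Kansl2, a subunit of a histone acetyltransferase complex, has peaks 381 bases apart. Its distal share was 7.32%, 5.13% and 4.88% at E11.5, next 18.2%, 12.3% and 13.7% in the E13.5 libraries, then 24.7%, 22.2% and 12.9% in those of E15.5, and last 23.0%, 38.2% and 29.8% in those of E17.5. The ratio rose by 2.74 ± 0.56 (edgeR adjusted p = 0.00781) through the distal peak, which rose by 3.09 ± 0.50, while the proximal one had 0.42 ± 0.38. Cbfa2t3, a transcriptional corepressor with 3 peaks, rose at each of them, by 1.58, 2.61 and 4.89 on the log2 scale from proximal to distal. Its ratio rose by 3.11 ± 0.71 (adjusted p = 0.0196), with a distal share of 24.2%, 50% and 55.6% at E11.5 and 75.6%, 86.7% and 89.1% at E17.5, and 3 left-out libraries each ended that call (up to 0.406).

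**Figure D4:**
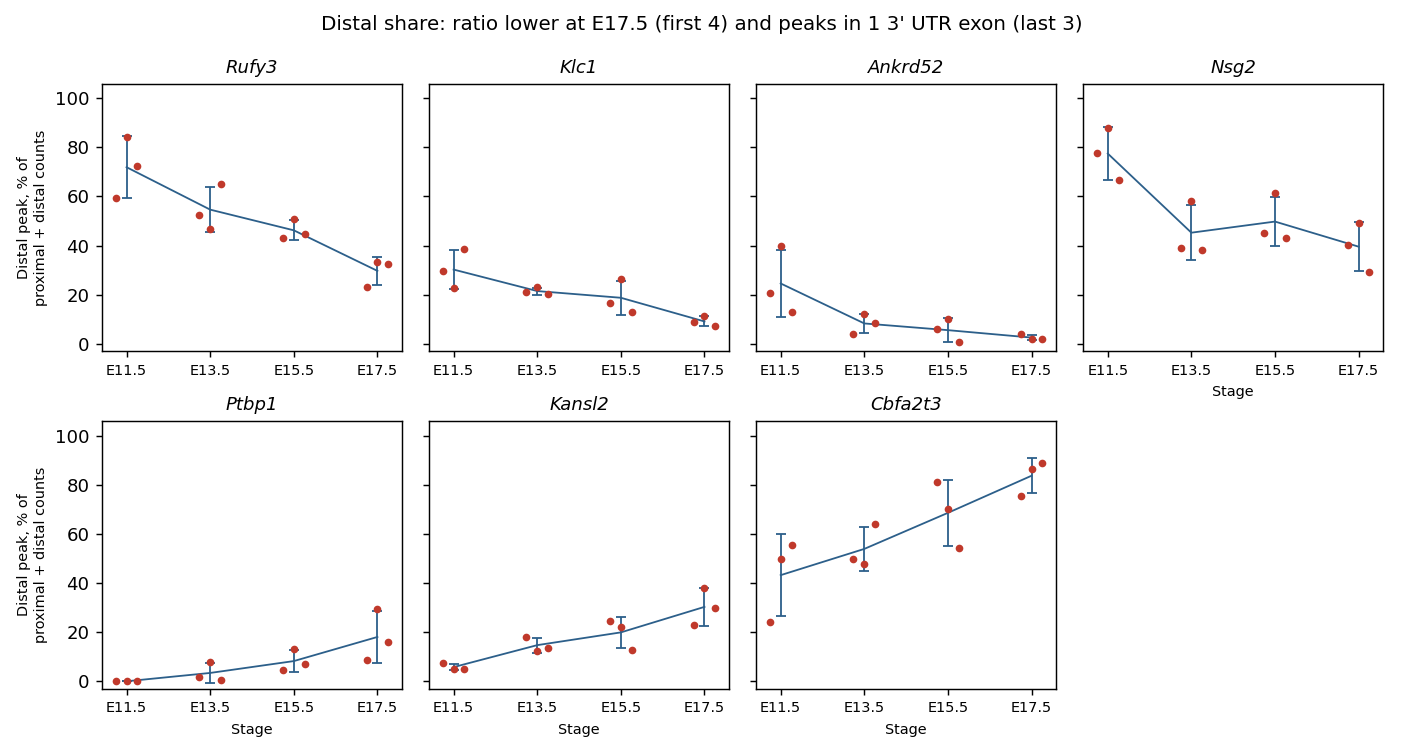
Distal peak as a percentage of proximal plus distal counts (vertical axis) by stage, with red points for the 3 libraries and blue lines and bars for the mean and SD, in 4 genes with a lower ratio at E17.5 and 3 genes with both peaks in 1 3' UTR exon. The E17.5 libraries lie below those of E11.5 in Rufy3, Klc1, Ankrd52 and Nsg2 and above them in Ptbp1, Kansl2 and Cbfa2t3. These genes were picked by a rule that asks for no overlap of these libraries.

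In the other layouts 4 pairs were called. Nsg2, a neuronal endosomal protein, had a distal share of 77.8%, 88.0% and 66.7% at E11.5 and 40.2%, 49.1% and 29.3% at E17.5 (log2 ratio -2.54 ± 0.64; edgeR adjusted p = 0.0446, up to 0.246 over 8 left-out libraries that each ended the call, and 0.0745 with the mean of 50 counts). Psmd1, a proteasome subunit, had 48.1%, 46.3% and 38.6% against 71.3%, 80.4% and 71.3% (1.87 ± 0.45; adjusted p = 0.0286, up to 0.146 over 6 such libraries). In Ncapd2, a condensin subunit, the ratio changed by -3.26 ± 0.60 (adjusted p = 0.00345), but both peaks lie in coding sequence and the proximal one overlaps exons of Scarna10, a small RNA, and Gm28967. The peaks of the gene model Gm21988 overlap exons of Rnasek and 0610010K14Rik (-2.52 ± 0.54; adjusted p = 0.0128, up to 0.0907 without E11.5 replicate 2 or E17.5 replicate 3). Reads of such overlapping genes cannot be told apart here.

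Between neighbouring stages few ratios passed. From E11.5 to E13.5 the ratio of 2 of 1068 pairs rose, in Fam193a and Mical3, and 0 fell, where 0.215% of all pairs were called (0.172% higher and 0.043% lower), and 46 had an unadjusted p under 0.05. Without any 1 of E11.5 replicates 1, 2 and 3 or E13.5 replicates 1 and 2 the count was 0, and without E13.5 replicate 3 it was 1. From E13.5 to E15.5 the count was 0 with edgeR (10 at an unadjusted p under 0.05, and 1 call with DESeq2), and 0.0% of all pairs were called. From E15.5 to E17.5 it was 1, Septin8, where 0.043% of all pairs were called, and 38 had an unadjusted p under 0.05. That call was lost without E17.5 replicate 3. Between E13.5 and E17.5 it was 3 (Lrrfip1 and Septin8 higher and Gnas lower), where 0.258% of all pairs were called, 0.129% in each direction. The test over all 4 stages called 15 of 1068 pairs (1.4%), where 1.2% of all pairs tested were called, and 59 of the 1068 had an unadjusted p under 0.05. Of the 15, 11 were in separate exons. The count was 8 without E11.5 replicate 2 or without E11.5 replicate 3. The 1 gene of the 15 without a call at E17.5 against E11.5 is Polb, a DNA repair polymerase, whose distal share was 48.7%, 53.8% and 84.6%, next 61.4%, 78.1% and 66.7%, then 96.9%, 93.5% and 98.9%, and 84.7%, 90.4% and 78.6% from E11.5 to E17.5. It was highest at E15.5, where the proximal peak had 3, 2 and 1 counts.

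Counts over gene lists are for genes with several 3' UTR peaks, and stand beside 25.8% higher and 26.1% lower of all gene peaks, and 215 both higher and 219 both lower of the 1068 pairs. Of 6 genes for microtubules and motors, 5 were higher at both outer peaks at E17.5 than at E11.5, and of their 19 tested peaks 14 rose and 0 fell. The ratio passed in 0 of the 6, with a median of 0.29 on the log2 scale. The kinesin light chain gene Klc1, given above, is not in this list, and its ratio passed as lower. Stmn2, which destabilises microtubules, rose by 3.03 ± 0.42 at its proximal and 3.29 ± 0.36 at its distal peak. Mapre3, a protein of growing microtubule ends, rose by 2.53 and 1.92. Dpysl3, a collapsin response mediator, rose at each of its 4 peaks by 3.67, 3.77, 3.67 and 4.05 from proximal to distal. Clasp1 was the 1 gene with neither outer peak called. Of 9 genes for synapse and calcium, 6 rose at both peaks and 1, Cacna2d1, changed its ratio (1.85% of all pairs tested were called), with a median of -0.17. Among their 18 peaks 13 rose and 1 fell. Snap25, of vesicle fusion, rose by 6.33 and 5.24 at the 2 peaks, and the postsynaptic scaffolds Shank1 by 5.05 and 4.52 and Dlg4 by 1.46 and 1.67. App, the Alzheimer precursor protein and the 1 gene with several 3' UTR peaks in a list of 16 with known alternative polyadenylation in the nervous system (9 are in the table), rose by 2.20 and 1.15, and its ratio of -0.97 ± 0.59 did not pass. In the axon guidance list both genes, Ctnnd2 and Epha5, rose at both peaks. In Epha5 the distal peak had 0, 1 and 0 counts at E11.5 against 88, 164 and 120 at E17.5, and the ratio did not pass (95% exact interval 2.09 to 565 times, counting error alone; edgeR adjusted p = 0.544).

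Progenitor genes and transcription factors had calls at both peaks too. Of 4 progenitor genes 3 fell at both peaks, among 8 peaks 6 fell and 0 rose (26.1% and 25.8% of all gene peaks), and the ratio passed in 0 (median 0.05 on the log2 scale). Hmga2, an early chromatin protein, had 2645, 1662 and 1260 proximal counts and 3883, 2784 and 4500 distal ones at E11.5, against 0, 3 and 0 and 0, 6 and 0 at E17.5. Its distal share was 49.2% to 78.1% over the libraries of the first 3 stages, and 2 libraries of E17.5 had no count to take a share of. Lhx2, a patterning factor, fell by 1.25 and 1.24, and the proneural factor Neurog1 by 3.96 and 3.61. Of 11 neuronal transcription factors 3 rose and 5 fell at both peaks, among 28 peaks 8 rose and 16 fell, and the ratio passed in 0 (median 0.29). Nfix rose by 5.91 and 6.46, while Cux1 fell by 2.11 and 1.43 and Tcf12 by 3.19 and 2.88. The collagen genes Col1a1 and Col4a1, of meninges and vessels, fell at both peaks.

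The list of RNA-binding proteins held 7 genes, of which 2 rose and 2 fell at both peaks. The ratio passed in 1, Ptbp1, with a median of 0.57 for the list. Celf4 rose by 2.79 and 2.76 and Nova2, a neuronal splicing factor, by 1.55 and 2.09, while Msi1, of progenitors, fell by 1.49 and 1.41. Stau2 itself has 5 peaks over coding sequence and 3' UTR. Its distal share was 13.3%, 21.9% and 39.0% at E11.5 and 48.7%, 58.2% and 45.8% at E17.5, without overlap, but the ratio of 1.79 ± 0.56 did not pass (edgeR adjusted p = 0.143). The most distal peak rose by 1.99 ± 0.38 and the other 4 did not pass. Of 8 genes for cleavage and polyadenylation 1 rose (Cpsf1) and 1 fell (Pabpc4) at both peaks, and the ratio passed in 0 (median 0.01). Pcf11, which helps end transcription, went from a distal share of 36.8%, 42.6% and 42.1% to 65.5%, 65.5% and 62.3% (1.42 ± 0.48; adjusted p = 0.22). Rbbp6 went from 87.6%, 90.7% and 93.5% to 71.1%, 63.1% and 80.6% (-1.90 ± 0.54; adjusted p = 0.0867). Chromatin, kinase and ubiquitin lists had 4, 2 and 4 genes with several 3' UTR peaks. Of their tested peaks 4 of 11, 3 of 4 and 6 of 11 were higher (25.8% of all gene peaks were). In these lists 0 peaks were lower and 0 ratios were called. The chromatin list (Bptf, Kmt2a, Setd2 and Smarcd1) does not hold Bcl7a, Hira, Kansl2, Kmt5b and Smarcad1, described above. Their ratios passed, and the proximal peak fell in each but Kansl2, so the list does not stand for chromatin genes as a whole. Of 11 interneuron genes 6 are in the table and 0 have several.

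Genes with more peaks were followed at each of them. Of 178 genes with 3 peaks, 32 rose and 33 fell at every peak between E11.5 and E17.5, 57 had calls at part of the peaks in 1 direction, 56 had none, and 0 had calls in both directions. Of 69 genes with 4 or more, 7 rose and 11 fell at every peak, and 1 had calls in both directions. Beside them, of 838 genes with 2 peaks 174 rose and 175 fell at both, and 10 had calls in both directions. Calls at every peak in 1 direction were made in 41.6% of genes with 2 peaks, 36.5% with 3 and 26.1% with 4 or more. In genes with more peaks, more of them have to pass. Ddhd1, a phospholipase, has 7 peaks, 5 of them in coding sequence. Their means rose from 1.98 to 20.6 CPM at E11.5 to 6.83 to 38.9 at E17.5, and the 2 most distal passed, with log2 changes of 1.13 ± 0.36 and 1.83 ± 0.60. Fbrsl1 has 7 as well, and there peaks 1, 5 and 7 from the proximal side passed, with 1.56, 1.74 and 2.13. The distal to proximal ratio passed in neither (1.06 ± 0.58 and 0.61 ± 0.68). Of the 7 genes with 6 peaks, 3 were followed by the rule for named genes. Deaf1 rose at 5 peaks and Cluap1 at the 2 most distal, its other 4 overlapping exons of Gm20695, while the chromatin remodeller Chd2 had 0 of 6 called, with log2 changes of 0.36 to 0.90.

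**Figure D5:**
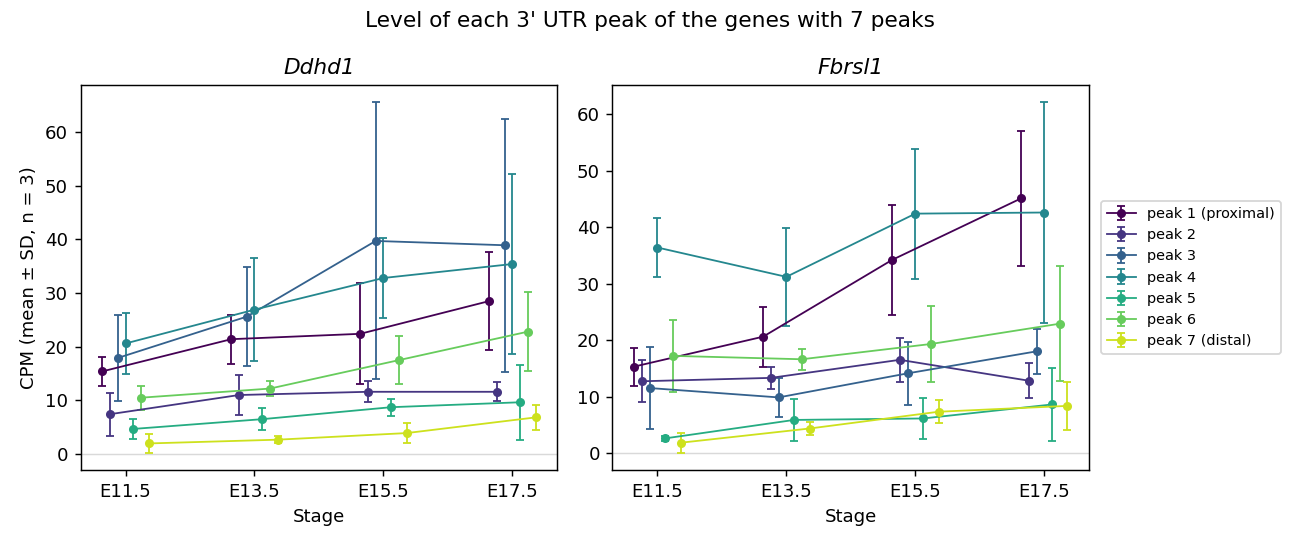
Level of each of the 7 peaks of Ddhd1 (left) and Fbrsl1 (right) in CPM, as the mean and SD of 3 libraries, by stage, coloured from the most proximal to the most distal peak. In Ddhd1 the most distal peak is the lowest at each stage (a mean of 1.98 CPM in E11.5 libraries and 6.83 in those of E17.5), and SDs of neighbouring peaks overlap widely.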

How the data were processed

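STAU2 immunoprecipitates from mouse embryonic cortex were sequenced after Ribo-Zero depletion with the stranded ScriptSeq kit, per the labels' protocols. The authors deposited whole-number counts per peak and strand in 12 columns, and a peak score for each peak, used here for a stricter selection. The submitters' processing notes name HOMER 4.10, mm10 and GRCm38, while which aligner and counter were used is not given in the sources used here. Column names carry a stage and number that the labels give to an immunoprecipitate and to its input alike. They were read as immunoprecipitates because the table lists peaks.

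Peaks with a gene (14297; 14106 after filterByExpr) were fitted with edgeR 4.0.16 in R 4.3.3 (TMM, quasi-likelihood F test, Benjamini-Hochberg at 0.05), without a replicate block. CPM values are edgeR's. For the ratio, counts of the most proximal and the most distal peak of each gene and location class formed 24 columns with the library as a block and a distal-by-stage term, and 2324 pairs were kept. The within-stage deviations of both peaks of a pair correlated with r = 0.071. Layouts, transcript ends and overlaps come from GENCODE vM21. A layout of separate exons needs both peaks mostly in 3' UTR of protein-coding transcripts and no 1 exon under both. DESeq2 1.42.0, limma 3.58.1 (pseudocount 0.5), other filters and scaling, and each library left out were tried. The procedure was tested on simulated data. No 2 libraries of a stage were duplicates.

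The named genes are, for E17.5 against E11.5, the 10 largest rises and falls of the ratio past the threshold without overlap of libraries, 3 a direction for each successive step, the 5 genes with most peaks, and 3 of each list by the p over 4 stages, skipping Gm and Rik models, intervals shared with another gene on the same strand, and repeats. The other called pairs were added so that each is described, and further list members were chosen after their values were seen. The members, layouts and lists were chosen with earlier results of these data known. Intervals and floors cover counting error only.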

Additional observations from a re-analysis of the deposited data

How the results depend on the processing

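The direction of the ratio change from E11.5 to E17.5 held in all 23 called genes under every alternative in which the pair could be fitted, and 12 kept the call wherever they could be tested, left-out libraries included (Bcl7a, Cacna2d1, Fam193a, Gnas, Kansl2, Kmt5b, Lrrfip1, Mical3, Ncapd2, Ptbp1, Rufy3 and Septin8). The count of 23 (16 higher, 7 lower) became 33 with DESeq2 (22 and 11), 27 with limma (18 and 9), 7 with both peaks at a mean of 50 counts or more (2 and 5), 10 with peaks at or above the median score (6 and 4), and 17 to 25 with a library left out. The count of 15 over the 4 stages became 25 with DESeq2, 1 with the mean of 50, 5 with the score, 4 without the 3 E11.5 libraries (an alternative added after seeing the data) and 8 to 17 with a library left out. For E13.5 against E11.5 the count of 2 became 5 with DESeq2, 0 with the mean of 50, 1 with the score and 0 to 3 with a library left out. For E15.5 against E13.5 the count of 0 became 1 with DESeq2 and without E11.5 replicate 3, and the range over left-out libraries was 0 to 1. For E17.5 against E15.5 the count of 1 became 2 with DESeq2, 0 with either filter and 0 to 1 with a library left out. Filters test fewer pairs. For other differences the cause was not tested. Of single peaks over the 4 stages, 1142 became 1838 when scaled to each library's total and 525 without the 3 E11.5 libraries, and 1088 to 1315 were called at E17.5 against E11.5 with a library left out.

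Libraries with the same replicate number had deviations that correlated with r of -0.20 to 0.52 (median 0.14, 18 pairs of libraries), and those with other numbers with r of -0.45 to 0.53 (median -0.18, 36 pairs). The same-number values were higher on the median, and each of the 6 pairs of replicates 2 was above 0.1, but not each pair of replicates 1 and 3, so pairing was not taken as shown. With a replicate block the ratio counts were 13 over the 4 stages, 1 at E13.5 against E11.5, 0 at E15.5 against E13.5, 1 at E17.5 against E15.5 and 26 at E17.5 against E11.5, and single peaks numbered 1251 and 1344. Depth limits the low peaks: counts under 10 at E11.5, as in Septin8 and Lrrfip1, fix the direction better than the size.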

Other observations

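Beyond the called genes, 4 further pairs in separate 3' UTR exons had an adjusted p under 0.1 in the test of E17.5 against E11.5 (edgeR), and in each the proximal peak lies in an intron of a transcript that holds the distal one. The ratio of Nsd3, a histone methyltransferase, stood at 1.84 ± 0.48 (log2 ± SE; adjusted p = 0.0515) and that of Ptprz1, a receptor phosphatase of radial glia, at 1.83 ± 0.50 (adjusted p = 0.0723). Nin, a centrosome protein, had a mean distal share of 64.8% at E11.5 and 31.0% at E17.5 (-2.56 ± 0.71; adjusted p = 0.0798), and both of its peaks rose, by 4.18 and 1.35. The remaining one is Rbbp6, given above. They were picked after their values were seen, and none passed.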
